A study of Homo sapiens with 8 samples.

Results

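The 79 genes described here encode, with exceptions named below, the nuclear-encoded subunits of the oxidative phosphorylation machinery. They were chosen by gene symbol alone, from 13307 genes with a value in every library, as all rows whose symbol follows the naming scheme of these subunits. By complex they are 37 genes of complex I, 4 of complex II, 9 of complex III, 12 of complex IV and 17 of complex V. The exceptions are ATP5S and ATP5SL (current symbols DMAC2L and DMAC2), which carry the naming of complex V but do not encode its subunits, and COX7A2L. The last is a factor that joins complexes III and IV in supercomplexes and is counted here with complex IV. COX4I1, a complex IV subunit, falls outside the naming pattern and is treated with the other pathway genes.

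Oxidative phosphorylation couples the transfer of electrons along complexes I to IV of the inner mitochondrial membrane to the synthesis of ATP by complex V, the ATP synthase. Complex I accepts electrons from NADH, complex II from succinate as part of the tricarboxylic acid cycle, complex III passes them to cytochrome c, and complex IV reduces oxygen. Most subunits are encoded in the nucleus and imported, and the remaining core subunits are encoded in mitochondrial DNA, whose transcripts were not analysed here.

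The study asked what PHF13, a reader protein of methylated histone H3, does in pancreatic cancer cells that undergo the epithelial-mesenchymal transition in response to TGFβ. PolyA RNA was sequenced from Panc-1, a human cell line from a carcinoma of the pancreatic duct, in 4 groups with 2 libraries each. Cells received a control siRNA (siControl) or siRNA against PHF13 (siPHF13) with a lipid transfection reagent, and were then left untreated or kept in 10 ng/ml TGFβ for 48 h. All groups were thus transfected cells of the same line, and nothing in the labels says that the duplicates were separate cultures, so that p-values measure only the spread between these libraries, which may be technical.

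Each library held between 39196214 and 46700806 reads on genes. PHF13, the targeted gene, had normalized counts of 1804 and 1662 in siControl, 524 and 558 in siPHF13, 1586 and 1709 in siControl with TGFβ, and 513 and 529 in siPHF13 with TGFβ. The epithelial keratins KRT8, KRT18 and KRT19 lay between 18358 and 120045 normalized counts in every library. The other markers of ductal epithelium were much lower: KRT7 at 379 to 489, EPCAM at 115 to 306 and CDH1 at 78.8 to 460. CEL, the measured marker of acinar cells, had a mean of 11.3. Of the lists for other cell types, COL1A1 (1887 to 16414 normalized counts) and CD68 (6137 to 13400) were high in all libraries. The other fibroblast (COL1A2, DCN, LUM) and immune (PTPRC, CD3E) markers were not among the genes with a value. Neither were the endothelial (PECAM1, VWF) and endocrine (INS, GCG, SST) markers. The part of COL1A1 and CD68 in the results was not tested.

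The promoters of 4 members that passed both thresholds in a depletion comparison are shown first. The RefSeq promoter table (GRCh38.p14) matched 64 of the 79 members. SDHC, which also passed, was not among those matched. The promoter of COX6B2, another member that passed, held none of the motifs below and is not printed. Each sequence gives the 250 bases before the annotated start, on the strand of the gene, and capitals mark letters of a motif searched on both strands: TGCGCA for NRF1, CCGGAA for ETS factors such as GABPA, ATGGCG for YY1 and TATAAA for the TATA box. NDUFB8 (chr10:100529924-100530173, minus strand) fell and NDUFA7 (chr19:8321376-8321625, minus strand) rose upon PHF13 depletion in both media. NDUFB6 (chr9:32573160-32573409, minus strand) rose with TGFβ present, and COX7C (chr5:86617691-86617940, plus strand) fell without TGFβ.
NDUFB8: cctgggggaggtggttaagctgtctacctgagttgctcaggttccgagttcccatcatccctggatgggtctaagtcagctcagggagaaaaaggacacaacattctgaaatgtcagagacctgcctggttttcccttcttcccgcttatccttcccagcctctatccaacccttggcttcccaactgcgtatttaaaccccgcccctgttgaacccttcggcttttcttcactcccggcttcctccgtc
NDUFA7: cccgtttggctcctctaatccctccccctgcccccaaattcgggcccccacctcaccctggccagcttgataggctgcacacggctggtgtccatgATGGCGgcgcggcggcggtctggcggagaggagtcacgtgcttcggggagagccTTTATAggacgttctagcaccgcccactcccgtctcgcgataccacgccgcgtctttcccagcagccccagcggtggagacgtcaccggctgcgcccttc
NDUFB6: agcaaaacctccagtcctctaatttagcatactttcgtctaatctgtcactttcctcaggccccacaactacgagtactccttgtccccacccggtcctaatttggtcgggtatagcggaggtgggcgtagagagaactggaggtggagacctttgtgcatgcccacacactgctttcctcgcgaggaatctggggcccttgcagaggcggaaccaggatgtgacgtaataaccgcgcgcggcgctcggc
COX7C: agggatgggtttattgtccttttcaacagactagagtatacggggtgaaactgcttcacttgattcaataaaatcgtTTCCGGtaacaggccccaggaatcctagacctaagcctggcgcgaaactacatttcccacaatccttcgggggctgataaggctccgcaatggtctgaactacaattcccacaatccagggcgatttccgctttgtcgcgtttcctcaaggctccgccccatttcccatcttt

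Among the printed bases, NDUFA7 held a YY1 and a TATA motif, COX7C an ETS motif, and NDUFB8 and NDUFB6 none of the 4. In the 50 bases after the start, which are not printed, NDUFB8 and COX7C held the NRF1 motif. Their GC content was 53.6% in NDUFB8, 66.8% in NDUFA7, 56% in NDUFB6 and 49.2% in COX7C, with 7, 23, 16 and 12 CpG dinucleotides. In windows that included those 50 bases, the NRF1 motif was found in 29.7% of the 64 member promoters, against 13.3% of the 10633 promoters of genes in the table and 8.4% of all 27305 promoters. The corresponding shares were 42.2%, 29.1% and 17.6% for the ETS motif and 35.9%, 17.9% and 11.0% for the YY1 motif, so that members carried each of these 3 letter strings more often than the other sets. The TATA motif was found in 9.4%, 5.5% and 12.0%. A match of letters is a description and not a binding site.

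No value of the 79 genes was 0. The lowest mean over all genes with a value was 9.82 normalized counts, so that a subunit gene without transcripts could not be a member. Mean normalized counts over the 8 libraries ran from 24.4 for NDUFA13, a subunit of complex I, to 33677 for ATP5B, the catalytic beta subunit of ATP synthase, with a median of 2617. By the median length of a gene's annotated protein-coding transcripts, ATP5B had 39342 normalized counts per kilobase, followed by 14226 for COX6B1 and 13727 for UQCRC2. The lowest was 39.1 for COX6B2, an isoform known chiefly from testis. That median length was 856 bases for ATP5B and 586 for UQCRC2, and depends on which transcripts are annotated. Whether the order holds with other lengths was not tested. Together the members took between 0.564% and 0.704% of the normalized counts of a library. In bulk RNA, fewer cells with a transcript and less of it per cell cannot be told apart.

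PHF13 depletion without TGFβ changed few of the members by more than the fold threshold. In siPHF13 against siControl, 5 of 79 members passed both thresholds of the study (adjusted p under 0.05 and absolute log2 fold change over 0.58, limma with Benjamini-Hochberg adjustment over all genes), where 18.4% of all genes did. NDUFA7 was the member that rose, against 7.95% of all genes, and NDUFB8, SDHC, COX6B2 and COX7C fell, against 10.4%. With the adjusted p alone, 23 members passed, 14 higher and 9 lower, where 47.4% of all genes passed, 23.1% higher and 24.3% lower. The median log2 fold change of the members was 0.06 (50 higher, 29 lower), against -0.0009 for all genes, and 62 of 79 members moved by less than 0.3 either way. The count by adjusted p alone was 12 without siControl replicate 1, 13 without siControl replicate 2, 15 without siPHF13 replicate 2 and 37 in a fit of the 4 compared libraries, while 19 passed without siPHF13 replicate 1, of which 7 were higher and 12 lower; leaving out that library took the members' median to -0.0073.

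The same comparison in TGFβ-treated cells gave a similar count of members. In siPHF13_TGFb against siControl_TGFb, 4 members passed both thresholds, where 20.5% of all genes did: NDUFA7 and NDUFB6 rose (8.81% of all genes) and NDUFB8 and SDHC fell (11.7%). With the adjusted p alone 31 members passed, where 50.4% of all genes did; 24 were higher and 7 lower, against 24.5% and 25.9% of all genes. The median of the members was 0.15 (56 higher, 23 lower), against 0.0034 for all genes. The count of 4 depended on single libraries: it was 8 without siPHF13_TGFb replicate 1 and 2 without siPHF13_TGFb replicate 2, and the median was 0.27 and 0.01 in turn. By adjusted p alone, 50 members passed without siPHF13_TGFb replicate 1 (46 higher, 4 lower), 30 without siPHF13_TGFb replicate 2 (15 higher, 15 lower) and 18 without siControl_TGFb replicate 1.

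The 2 depletion comparisons share no library. NDUFA7, NDUFB8 and SDHC passed both thresholds in each, which is 3 of the 5 members called without TGFβ and 3 of the 4 called with it. By adjusted p alone 20 members passed in each, all in the same direction (14 higher, 6 lower), 87.0% and 64.5% of the lists. The same overlap was not counted over all genes. Without and with TGFβ, 18.4% and 20.5% of all genes passed both thresholds, and 47.4% and 50.4% the adjusted p alone. Across the 79 members the fold changes had the same sign in 69 and correlated with Pearson's r = 0.905 and Spearman's rho = 0.87; across all genes 84.5% had the same sign and Pearson's r was 0.814. These are descriptions across genes, which are not independent replicates.

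**Figure D1:**
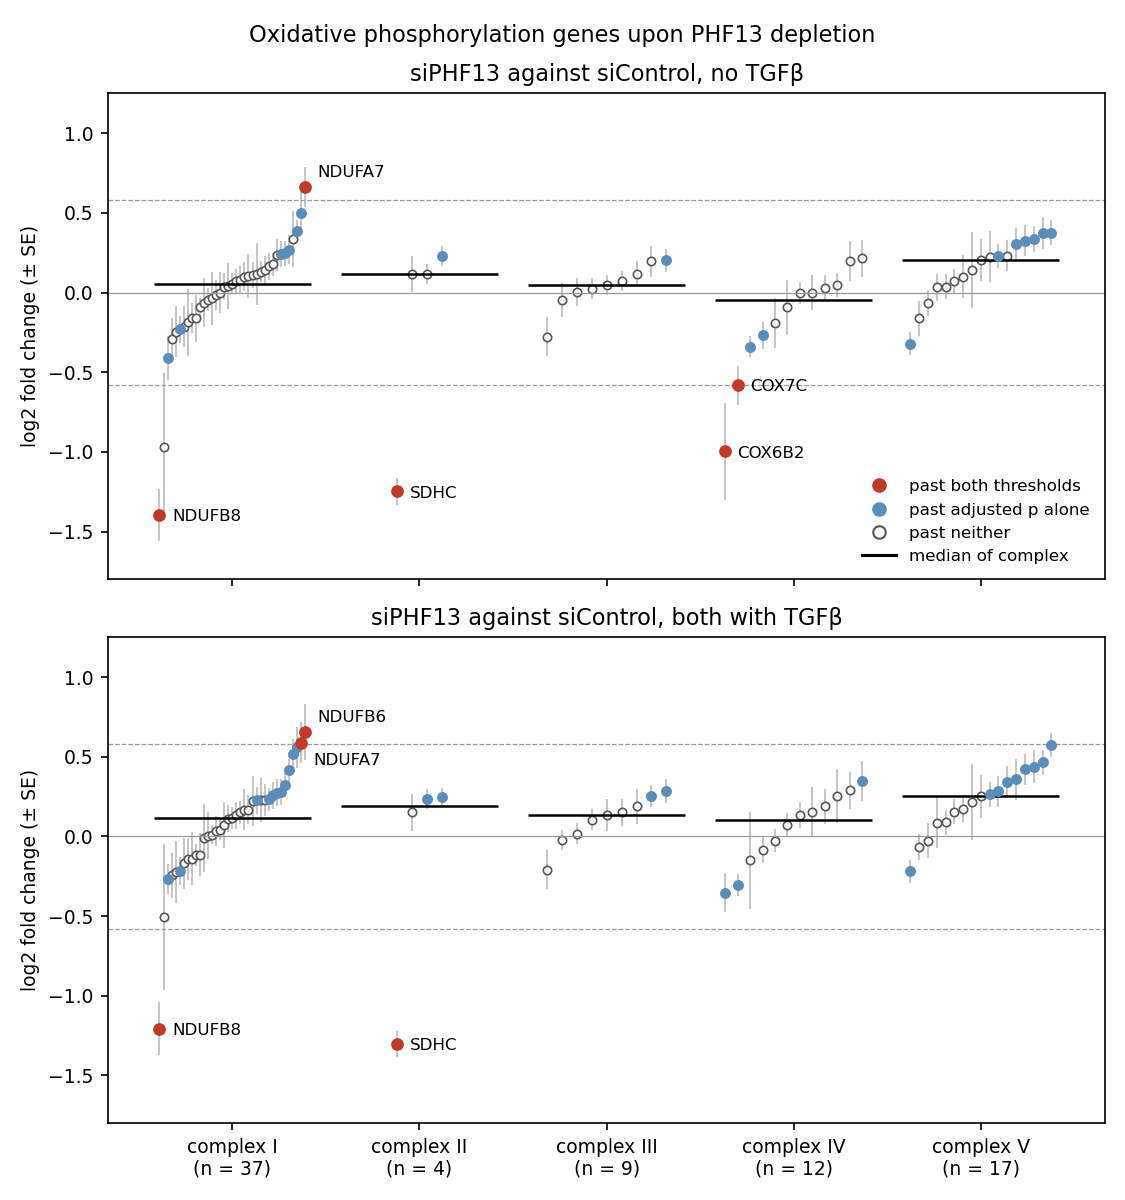
Log2 fold change (± SE from the limma fit) of each of the 79 genes upon PHF13 depletion, sorted within each complex, without TGFβ (top) and with TGFβ (bottom). Red points passed both thresholds, blue points the adjusted p alone, open points neither, and dashed lines mark ±0.58; NDUFB8 and SDHC lie lowest in both panels and most members lie close to 0.

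In complex I, NDUFB8 and NDUFA7, both accessory subunits around the catalytic core, moved in opposite directions. NDUFB8 (chr10:102283497-102289757, minus strand, GRCh37) had normalized counts of 1094 and 1112 in siControl, 462 and 379 in siPHF13, 783 and 1021 in siControl with TGFβ, and 325 and 460 in siPHF13 with TGFβ. All 4 depleted libraries lay below all 4 control libraries. The log2 fold change was -1.40 ± 0.17 (SE; limma adjusted p = 1.297e-05) without TGFβ and -1.21 ± 0.17 (limma adjusted p = 4.021e-05) with it, to 38% and 43.3% of the control means. In the GENCODE annotation, 48.5% of the exonic bases of NDUFB8 overlap other genes and 2 pseudogenes carry its name, so that its counts are less certain than those of most members.

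NDUFA7 (chr19:8373652-8386259, minus strand, GRCh37) had 369 and 391.9 normalized counts in siControl, 625 and 581 in siPHF13, 361 and 404 in siControl with TGFβ, and 525 and 631 in siPHF13 with TGFβ. The depleted libraries were the higher ones in each medium, with no overlap. The log2 fold change was 0.66 ± 0.13 (limma adjusted p = 0.0007438) without and 0.59 ± 0.13 (limma adjusted p = 0.001579) with TGFβ. The latter call was lost without siControl_TGFb replicate 1 (0.51), without siPHF13_TGFb replicate 2 (0.46) and with correction for GC content and length (0.49), and 32.5% of the exonic bases of NDUFA7 overlap other genes.

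NDUFB6, another accessory subunit of the membrane arm, had 758 and 824 normalized counts in siControl, 1172 and 852 in siPHF13, 582 and 747 in siControl with TGFβ, and 869 and 1242 in siPHF13 with TGFβ. The depleted libraries were higher in each medium but spread widely. The log2 fold change passed the test with TGFβ (0.66 ± 0.17, limma adjusted p = 0.006491), a call lost without siControl_TGFb replicate 1 (0.48) or siPHF13_TGFb replicate 2 (0.40). Without TGFβ it did not pass (0.34 ± 0.17, limma adjusted p = 0.1287), though its adjusted p was under 0.05 in a fit of the 4 compared libraries, without siPHF13 replicate 2 (0.57) and without siPHF13_TGFb replicate 1. The difference between these responses was 0.32 ± 0.25 (limma adjusted p = 0.7686 for the interaction).

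The core subunits of complex I moved little. NDUFS1, which carries iron-sulfur clusters, had log2 fold changes of 0.06 and 0.04 without and with TGFβ, and NDUFV1, the subunit that binds NADH, had -0.02 and 0.03, and neither passed the test. NDUFS7, the subunit with the last iron-sulfur cluster before ubiquinone, passed the adjusted p in both comparisons at 0.24 ± 0.08 and 0.27 ± 0.08 (limma adjusted p = 0.02858 and 0.01441), although 51.4% of its exonic bases overlap another gene. Neither call of NDUFS7 held with correction for GC content and length (0.15 and 0.09, limma adjusted p = 0.1736 and 0.3951), nor did that without TGFβ when any library of siControl or siPHF13 was left out, nor that with TGFβ without siControl_TGFb replicate 1. Over the complex, 6 members were higher and 3 lower by adjusted p alone without TGFβ, and 11 were higher and 3 lower with it, where 23.1% and 24.3% of all genes, and 24.5% and 25.9%, were higher and lower; the medians of the 37 members were 0.06 and 0.12. NDUFA8 and NDUFV3, named here after their values were seen, had the next highest fold changes with TGFβ after NDUFB6 and NDUFA7, at 0.56 ± 0.13 and 0.52 ± 0.09 (limma adjusted p = 0.002695 and 0.0003922), just under the fold threshold. NDUFA8 passed both thresholds by edgeR, without siControl_TGFb replicate 2 and without siPHF13_TGFb replicate 1 (0.79), and was at 0.32 without siPHF13_TGFb replicate 2. NDUFV3 passed them with correction for GC content and length (0.69) and without siControl_TGFb replicate 2 (0.61).

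**Figure D2:**
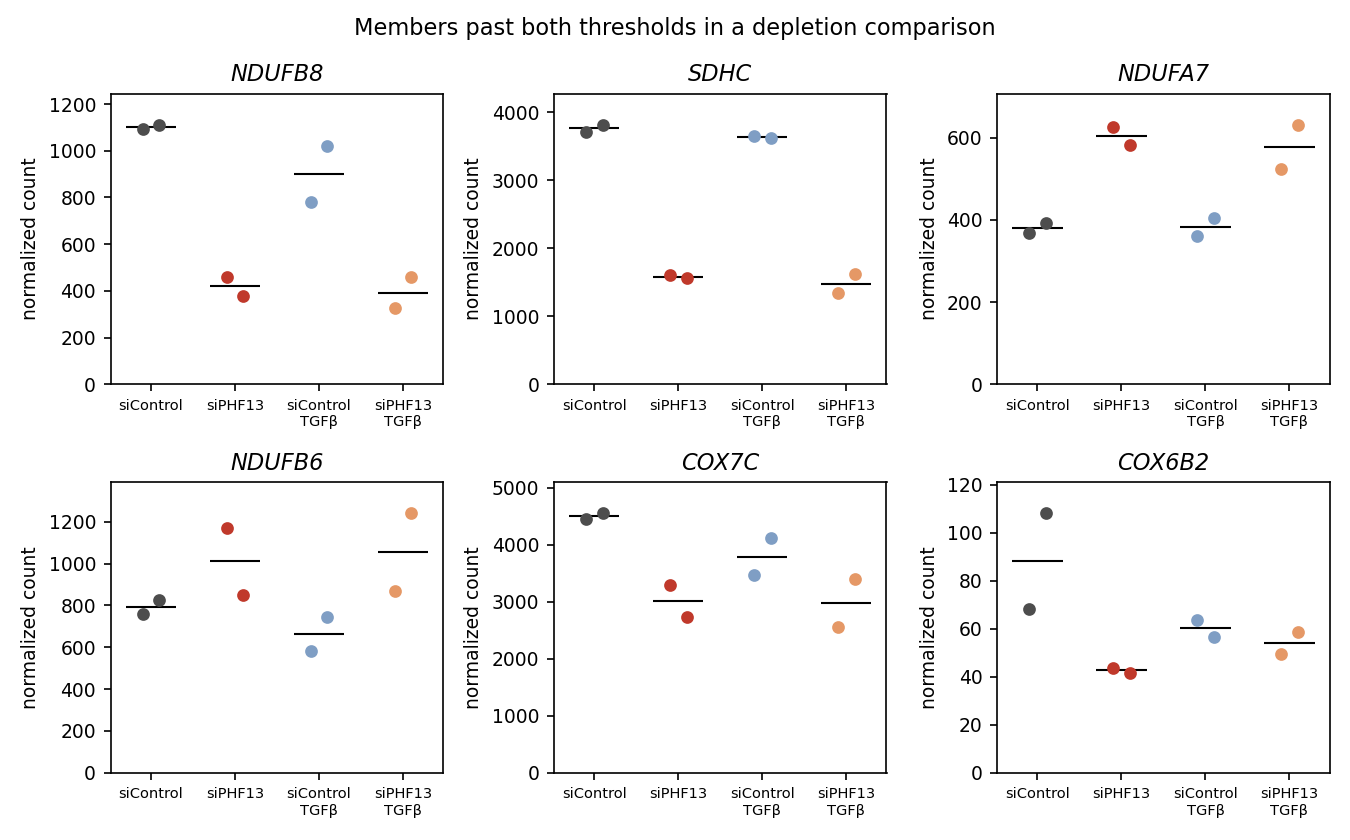
Normalized counts of the 6 genes past both thresholds in at least 1 depletion comparison; points are libraries, lines are group means of 2 libraries and each vertical axis starts at 0. The siPHF13 points of NDUFB8 and SDHC lie far below the siControl points with and without TGFβ, while those of NDUFB6 and COX7C spread more.

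In complex II a single subunit fell. SDHC, which anchors succinate dehydrogenase in the inner membrane (chr1:161284171-161332996, plus strand, GRCh37), had normalized counts of 3712 and 3819 in siControl, 1605 and 1565 in siPHF13, 3646 and 3630 in siControl with TGFβ, and 1343 and 1617 in siPHF13 with TGFβ. The highest depleted library (1617) lay far below the lowest control library (3630). The log2 fold change was -1.25 ± 0.08 (limma adjusted p = 8.621e-08) without TGFβ and -1.30 ± 0.08 (limma adjusted p = 4.853e-08) with it. These were the lowest adjusted p of all members in each comparison, and SDHC passed in every alternative fit. In the GENCODE annotation SDHC has 4 named pseudogenes, with which reads can be shared, and 0.0% of its exonic bases overlap other genes.

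The other 3 subunits of the complex were not lower. SDHA, the catalytic flavoprotein, had 5048 and 4971 normalized counts in siControl, 5682 and 6075 in siPHF13, 4930 and 4891 in siControl with TGFβ, and 5722 and 5926 in siPHF13 with TGFβ, and passed the adjusted p in both comparisons (0.23 ± 0.06 and 0.25 ± 0.06, limma adjusted p = 0.006968 and 0.00423), although the first was not under 0.05 without siControl replicate 2 or without siPHF13 replicate 2. SDHB, the iron-sulfur subunit, had log2 fold changes of 0.12 ± 0.06 (limma adjusted p = 0.1326) and 0.24 ± 0.06 (limma adjusted p = 0.006001). SDHD, the other membrane anchor, had 0.12 ± 0.11 and 0.15 ± 0.11 and did not pass the test. As a description chosen after the values were seen, SDHC made up between 19.4% and 20.7% of the normalized counts on the 4 genes in the siControl libraries and between 7.87% and 8.55% in the siPHF13 libraries.

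Complex III had no member past both thresholds in either depletion comparison. By adjusted p alone CYC1, the cytochrome c1 subunit, was higher in both (0.20 ± 0.07 and 0.25 ± 0.07, limma adjusted p = 0.03056 and 0.009061). Neither call of CYC1 held with correction for GC content and length (0.11 and 0.12, limma adjusted p = 0.1657 and 0.1271), nor did that without TGFβ when any library of siControl or siPHF13 was left out, nor that with TGFβ without siControl_TGFb replicate 2 (0.15). UQCRFS1, the Rieske iron-sulfur protein, was higher with TGFβ (0.28 ± 0.08, limma adjusted p = 0.007366) and had 0.12 ± 0.08 without it (limma adjusted p = 0.2221). The call of UQCRFS1 with TGFβ was lost without siControl_TGFb replicate 1 or siPHF13_TGFb replicate 2 (0.18), and without TGFβ its adjusted p was 0.0169 by limma after correction for GC content and length (0.24). The core proteins UQCRC1 (0.05 and -0.02) and UQCRC2 (0.07 and 0.10) did not pass. Nor did UQCRQ, the member with the lowest fold change in each comparison (-0.28 and -0.21), although in each an alternative fit put its adjusted p under 0.05. The medians of the 9 members were 0.05 and 0.13.

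Complex IV held members on the lower side without TGFβ. COX7C, a small accessory subunit, had normalized counts of 4445 and 4556 in siControl, 3301 and 2741 in siPHF13, 3463 and 4118 in siControl with TGFβ, and 2563 and 3403 in siPHF13 with TGFβ. The depleted libraries were lower in each medium. The log2 fold change of -0.58 ± 0.12 (limma adjusted p = 0.001449) without TGFβ was at the fold threshold, and fell inside it with TMM scaling, with correction for GC content and length, with edgeR, with DESeq2, without siControl replicate 2 and without siPHF13 replicate 2, with values down to -0.45. With TGFβ it was -0.35 ± 0.12 (limma adjusted p = 0.02633), and this adjusted p was not under 0.05 without siControl_TGFb replicate 2 (-0.23) or siPHF13_TGFb replicate 1 (-0.15).

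COX6B2 had few counts, 68.3 and 108 in siControl, 43.8 and 41.4 in siPHF13, 63.6 and 56.6 in siControl with TGFβ, and 49.7 and 58.7 in siPHF13 with TGFβ. The 2 siControl libraries differed from each other by more than siControl replicate 1 differed from the depleted ones. The log2 fold change was -0.997 ± 0.30 (limma adjusted p = 0.01494), lost without siControl replicate 2 (-0.67) or siPHF13 replicate 2 (-0.96), and -0.15 ± 0.30 with TGFβ (limma adjusted p = 0.711). Its paralog COX6B1, which carries most of the transcripts of this subunit, had between 6418 and 7901 normalized counts in all libraries. Without siControl replicate 2, and likewise without siPHF13 replicate 2, the count of members past both thresholds went from 5 to 3.

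COX7A2L, a factor that joins complexes III and IV in supercomplexes, was lower in both comparisons by adjusted p alone (-0.34 ± 0.07 and -0.30 ± 0.07, limma adjusted p = 0.0008631 and 0.001724), with all 4 depleted libraries (4112 to 4541 normalized counts) below all 4 control libraries (5302 to 5402). COX5A and COX5B, which pack against the catalytic core, did not pass: COX5A had -0.0015 and -0.03 and COX5B 0.22 and 0.29. COX5B was close to the limit with TGFβ (limma adjusted p = 0.05044), and in each comparison an alternative fit put it under 0.05. COX6A1, COX7A2, COX7B and COX8A, subunits that have isoforms in other tissues, did not pass either. NDUFA4, once counted to complex I, had the highest fold change of the complex with TGFβ (0.35, limma adjusted p = 0.03308). Its adjusted p with TGFβ was not under 0.05 by DESeq2, in a fit of the 4 compared libraries, without siControl_TGFb replicate 1 (0.22) or without siPHF13_TGFb replicate 2 (0.11), and NDUFA4 passed both thresholds without siPHF13_TGFb replicate 1 (0.59). The medians of the 12 members were -0.05 and 0.10, so that complex IV had the lowest median of the 5 complexes in each depletion comparison.

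In complex V the members leaned higher, by small amounts. Without TGFβ 14 of 17 were higher, with a median of 0.21, and with TGFβ again 14 of 17, with a median of 0.25; 6 and 8 of them passed the adjusted p upward, where 23.1% and 24.5% of all genes did, 1 and 1 passed downward, where 24.3% and 25.9% did, and none passed both thresholds by limma. By library, the complex V median, as a log2 difference from the siControl mean, was 0.30 and 0.08 in siPHF13, -0.19 and -0.06 in siControl with TGFβ, and -0.06 and 0.32 in siPHF13 with TGFβ, so that the TGFβ-treated groups met at -0.06. ATP5D, the delta subunit of the central stalk, was the highest in each: 1857 and 1731 normalized counts in siControl, 2369 and 2287 in siPHF13, 1634 and 1596 in siControl with TGFβ, and 2295 and 2518 in siPHF13 with TGFβ. All 4 depleted libraries lay above all 4 control libraries, with log2 fold changes of 0.38 ± 0.08 and 0.57 ± 0.08 (limma adjusted p = 0.001157 and 3.331e-05). With TGFβ the value of ATP5D was 0.37 after correction for GC content and length, and just past the fold threshold by edgeR, without siControl_TGFb replicate 1 and without siPHF13_TGFb replicate 1 (0.64). ATP5SL, which is not a subunit, is counted among the members that passed the adjusted p upward in each comparison (0.23 ± 0.08 and 0.26 ± 0.08). Neither call of ATP5SL held in every alternative fit. The subunits of the catalytic head did not pass: ATP5A1 had -0.07 in both, ATP5B 0.07 and 0.16, and ATP5C1 0.04 and 0.09. ATP5O, of the peripheral stalk, passed with TGFβ (0.36 ± 0.13, limma adjusted p = 0.03467), a call lost without siControl_TGFb replicate 1 or siPHF13_TGFb replicate 2 (0.23), and had 0.21 ± 0.13 without it (limma adjusted p = 0.2138).

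ATP5G1, ATP5G2 and ATP5G3 encode the same mature protein, subunit c of the rotor ring, and moved in different directions. ATP5G1 had 5471 and 5420 normalized counts in siControl, 7044 and 6698 in siPHF13, 4806 and 5159 in siControl with TGFβ, and 6267 and 7546 in siPHF13 with TGFβ, with log2 fold changes of 0.33 ± 0.08 and 0.47 ± 0.08 (limma adjusted p = 0.003587 and 0.0002879). ATP5G2 had 4060 and 3923, 3260 and 3133, 3852 and 3397, and 3113 and 3100 in the same order, with -0.32 ± 0.07 and -0.22 ± 0.07 (limma adjusted p = 0.002307 and 0.02071), the latter not under 0.05 without siControl_TGFb replicate 1 (-0.13) or in a fit of the 4 compared libraries. ATP5G3 did not pass, at -0.16 ± 0.11 and -0.03 ± 0.11, although an alternative fit put its adjusted p without TGFβ under 0.05. The depleted libraries were all above the controls for ATP5G1 and all below them for ATP5G2.

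As shares of the normalized counts on the 3 genes, chosen after the values were seen, ATP5G1 had 36.4% to 38.2% in the siControl libraries and 45.9% to 47.7% in the siPHF13 libraries. ATP5G2 had 25.2% to 29.8% and 19.6% to 23.4%. The sum over the 3 genes lay between 12919 and 15821 normalized counts and overlapped between siControl and siPHF13 libraries. ATP5G1 has 8 named pseudogenes and ATP5G2 has 5, with which reads can be shared.

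**Figure D3:**
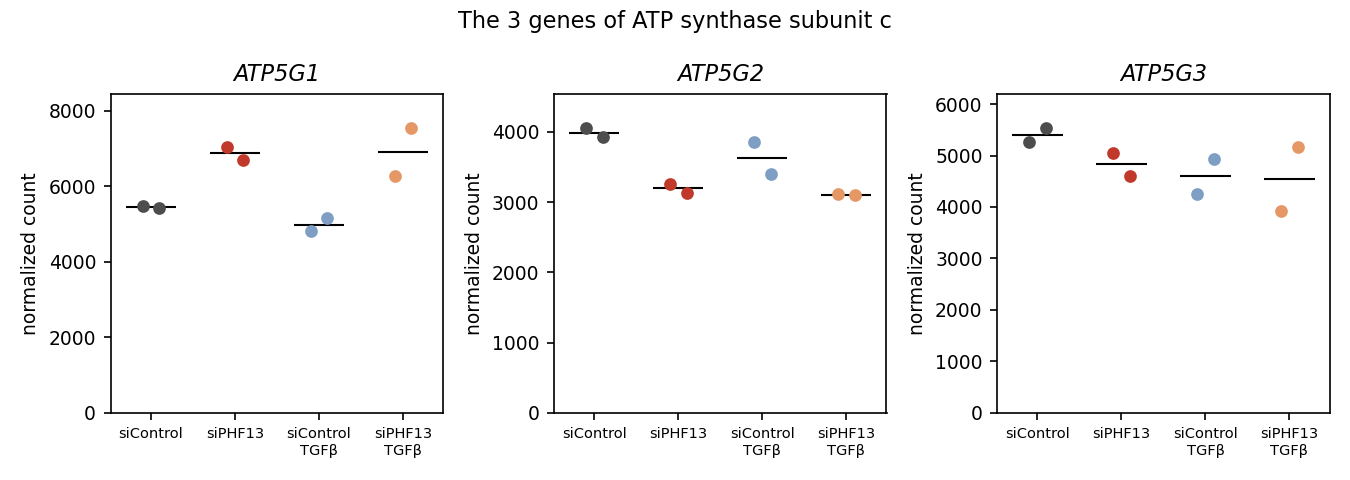
Normalized counts of ATP5G1, ATP5G2 and ATP5G3, which encode subunit c of ATP synthase, by library; points are libraries, lines are group means of 2 libraries and vertical axes start at 0. ATP5G1 is higher and ATP5G2 lower in all siPHF13 libraries, and ATP5G3 overlaps between siControl and siPHF13 with TGFβ.

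No member passed either threshold upon TGFβ treatment. In siControl_TGFb against siControl, 0 of 79 members passed both thresholds by limma, edgeR or DESeq2, where 4.79% of all genes did in limma, and 0 passed the adjusted p alone, where 15.9% of all genes did. By limma 8 members had an unadjusted p under 0.05 (1 higher, 7 lower), where 28.4% of all genes did. The lowest adjusted p was that of UQCRC1 (0.17 ± 0.06, limma adjusted p = 0.07866). In a fit of these 4 libraries only, 11 members passed the adjusted p alone, 1 higher and 10 lower, where 3093 of 13202 genes did. The members' median was -0.10 (14 higher, 65 lower), against -0.0059 for all genes, and 74 of 79 moved by less than 0.3. The lowest fold changes by complex were -0.36 for NDUFA2, -0.10 for SDHB, -0.17 for UQCRFS1, -0.51 for COX6B2 and -0.24 for ATP5G3, and the highest 0.14 for NDUFA11, -0.03 for SDHA, 0.17 for UQCRC1, 0.02 for COX7B and 0.08 for ATP5J2.

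In depleted cells TGFβ gave the same count. In siPHF13_TGFb against siPHF13, 0 members passed both thresholds, where 1.35% of all genes did, and 0 the adjusted p alone, where 3.07% did, in limma, edgeR and DESeq2. By limma 1 member had an unadjusted p under 0.05, where 13.9% of all genes did. This was NDUFV3 (0.22 ± 0.09, limma adjusted p = 0.2962). Without siPHF13_TGFb replicate 2, 3 members were lower by adjusted p alone. For the interaction, the response to TGFβ in depleted cells minus that in control cells, 0 members passed both thresholds (0.308% of all genes) or the adjusted p alone (0.413%), by limma, edgeR and DESeq2. By limma 0 had an unadjusted p under 0.05, where 9.46% of all genes did. The lowest adjusted p was that of COX6B2 (0.85 ± 0.43, limma adjusted p = 0.5837). The comparisons with TGFβ share libraries with the depletion comparisons.

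The median of the members also differed between the duplicates of a group. The median log2 difference of replicate 2 minus replicate 1 was 0.04 in siControl, -0.12 in siPHF13, 0.13 in siControl with TGFβ and 0.26 in siPHF13 with TGFβ, where 72 of 79 members were higher in replicate 2. Over all genes the same medians stayed between -0.0091 and 0.005. The members have short transcripts (median 651 bases, against 1981 over all genes), and in siPHF13 with TGFβ the median difference was 0.04 for 2779 other genes under 1000 bases, -0.07 for 3935 genes of at least 3000 bases and 0.18 for mitochondrial ribosomal proteins. The part of these differences in the results was not tested.

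**Figure D4:**
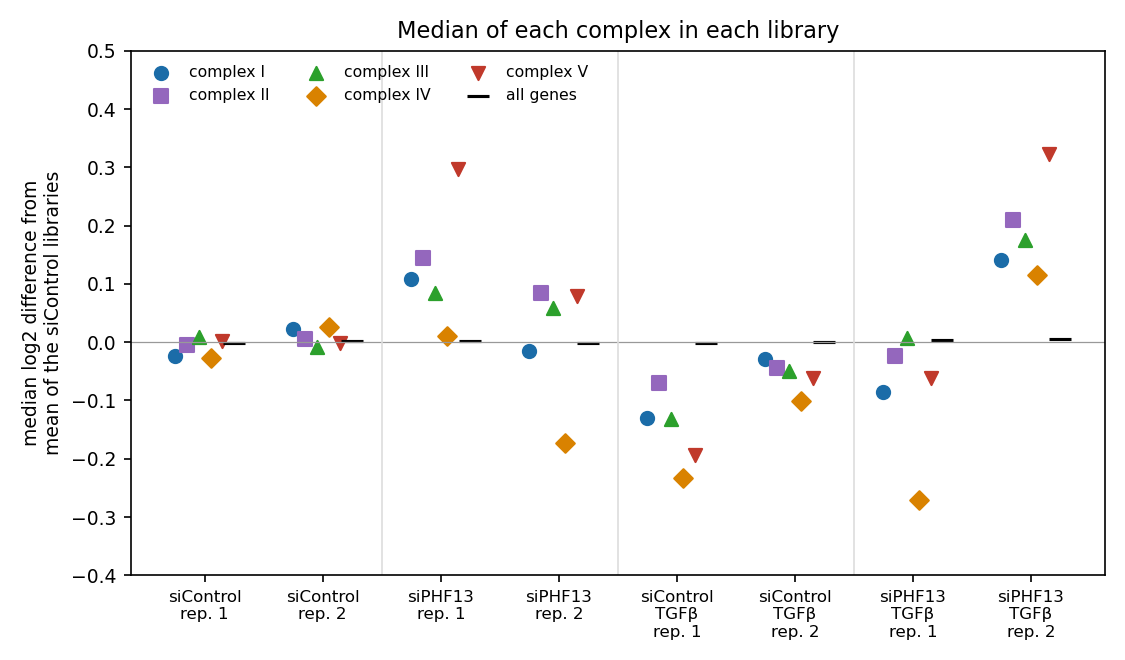
Median over the members of each complex, and over all genes, of the log2 difference from the mean of the siControl libraries, for each of the 8 libraries. In siPHF13 with TGFβ the medians of the 5 complexes lie between -0.27 and 0.01 in replicate 1 and between 0.11 and 0.32 in replicate 2, while all genes stay at 0.

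Other genes of the pathway were taken from lists set by name, to be read against the background: past both thresholds, 7.95% of all genes rose and 10.4% fell without TGFβ, and 8.81% and 11.7% did so with it. Of 13 further subunits and carriers, 1 rose past both thresholds in each depletion comparison and 0 fell. This was CYCS, cytochrome c, the mobile carrier between complexes III and IV, with 10435 and 10376 normalized counts in siControl, 16692 and 15095 in siPHF13, 9288 and 10574 in siControl with TGFβ, and 13467 and 17468 in siPHF13 with TGFβ. The depleted libraries were all above the controls, with log2 fold changes of 0.61 ± 0.10 and 0.63 ± 0.10 (limma adjusted p = 0.000232 and 0.0001543). By adjusted p alone 2 of the 13 were higher and 4 lower without TGFβ, and 4 were higher and 2 lower with it. Of all genes, 23.1% were higher and 24.3% lower without TGFβ, and 24.5% and 25.9% with it. COX4I1 had 0.04 without TGFβ and did not pass.

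Of 44 assembly factors, 1 rose and 1 fell past both thresholds without TGFβ, and 3 rose and 2 fell with it, where 18.4% and 20.5% of all genes passed in either direction; the medians were 0.08 and 0.12. UQCC1, a factor for complex III, had 2876 and 3146 normalized counts in siControl, 5075 and 5179 in siPHF13, 2758 and 2950 in siControl with TGFβ, and 4620 and 4680 in siPHF13 with TGFβ, with 0.77 ± 0.07 and 0.70 ± 0.07 (limma adjusted p = 9.367e-07 and 1.865e-06). TACO1, a translational activator of the mitochondrially encoded COX1 subunit, had 712 and 713, 322 and 330, 562 and 617, and 288 and 281 in the same order, with -1.12 ± 0.12 and -1.05 ± 0.12 (limma adjusted p = 3.47e-06 and 6.065e-06). The depleted libraries did not overlap the controls for either gene.

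Of 26 regulators of mitochondrial biogenesis and mitochondrial DNA expression, 1 rose and 1 fell past both thresholds without TGFβ, and 3 of 26 passed upward and 1 downward with it. Of all genes, 18.4% and 20.5% passed in either direction without and with TGFβ. YY1, a transcription factor with targets in many cell functions, had 3925 and 3877 normalized counts in siControl, 5962 and 6182 in siPHF13, 3976 and 4358 in siControl with TGFβ, and 6423 and 6094 in siPHF13 with TGFβ (0.64 ± 0.07 and 0.59 ± 0.07, limma adjusted p = 3.686e-06 and 6.933e-06). GABPB2, a partner of the ETS factor GABPA, was lower (-0.61 ± 0.15 and -0.64 ± 0.15, limma adjusted p = 0.003812 and 0.002571). NRF1 itself had 0.03 without TGFβ (limma adjusted p = 0.7923). PPARGC1A, the coactivator PGC-1alpha, was the list's call for TGFβ in siControl cells, with between 0 and 19.9 normalized counts in the libraries.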

How the data were processed

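PolyA RNA of Panc-1 was sequenced in 8 libraries, grouped by the sample labels. As deposited by the authors, the table used here holds a signal, gene counts divided by a size factor of each library; per the labels and the study's methods, reads were trimmed with Trim Galore 0.4.1, mapped to hg19 with STAR 2.7.0, counted on exons with HTSeq 0.12.4 and normalized with DESeq2. The annotation release and the strand setting are not given in the sources used here. The 3 tables of the authors' own comparisons, which hold fold changes and p-values, were not used.

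In each library 100% of the values were whole multiples of a step, the worth of 1 read, within 0.01 reads, which gave 39196214 to 46700806 reads on genes. If the step were 1, at most 2.01% would have been whole.

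A single limma 3.58.1 fit with a trended prior (R 4.3.3) on log2(normalized count + 1) used all 8 libraries and 13307 genes, with Benjamini-Hochberg adjustment over all of them. Requiring 10 normalized counts in 2 or more libraries left out 0 genes. Members past an adjusted p of 0.05 and an absolute log2 fold change of 0.58 were called. Alternatives were a pseudocount of 5, no filter, TMM scaling, the compared libraries alone, the replicate number as a block, splines on GC content and length (5 degrees of freedom, 13127 genes), edgeR 4.0.16 and DESeq2 1.42.0 on the recovered reads, and each library left out in turn. For siPHF13 against siControl the count tests called 2437 (edgeR) and 2422 (DESeq2) genes. The main fit was tested on simulated data for siPHF13 against siControl only. Of 200 genes changed by a log2 of 1, 188 were recovered, and 4 other genes were called. Smaller changes, the other comparisons and the alternatives were not simulated.

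The members and gene lists were chosen with earlier results of these data known. Genes were named by a rule: members past both thresholds, the highest and lowest of each complex in 3 comparisons, set core subunits and isoforms, PHF13 and, of other lists, up to 5 rises and 5 falls past both thresholds, of which those that best describe a list are printed; exceptions are stated. Of the other lists, 1 selected gene is not reported here. Lengths and GC content are medians over a gene's protein-coding transcripts, or over all its transcripts where it has none. They and the overlaps come from GENCODE annotation of GRCh37, not the authors' annotation. By it 2 members, NDUFS7 and ATP5I, share over 50% of their exonic bases with other genes, and 48 members have named pseudogenes, up to 17 for COX6C.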

Additional observations from a re-analysis of the deposited data

How the results depend on the processing

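Counts of members past both thresholds stayed within 4 and 5 without TGFβ and within 4 and 6 with it (6 by edgeR) under the other scalings, filters, tests and corrections, and were 0 in each for both TGFβ responses and the interaction. Without a threshold on the fold change, the adjusted p alone passed 23 members without TGFβ and 31 with it. Leaving out each library in turn gave 3 to 5 members without TGFβ and 2 to 8 with it. The median log2 fold change of the members then ranged from -0.0073 to 0.099 for depletion without TGFβ, from 0.0071 to 0.2712 for depletion with TGFβ, from -0.14 to -0.0502 for TGFβ in siControl cells, from -0.1373 to 0.1163 for TGFβ in siPHF13 cells and from -0.0387 to 0.2066 for the interaction; where a group is left with 1 library, that library is assumed to vary like the others. Correction for GC content and length moved the medians to 0.0605, -0.0641, 0.1028, -0.0316 and 0.0369. No called gene changed direction. Replicate numbers are shared by the groups. Deviations of same-numbered libraries correlated between -0.089 and 0.05, so that no common deviation was seen. This cannot show whether same-numbered libraries were handled together. With the replicate number as a block the counts were 5 and 4. What the differences between settings come from was not tested. With 2 libraries a group, small shifts of single members are not resolved.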

Other observations

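Mitochondrial ribosomal proteins, which translate the mitochondrially encoded subunits, leaned higher upon PHF13 depletion. Of 75, 4 rose and 1 fell past both thresholds without TGFβ, and 12 rose and 2 fell with it, where 7.95% of all genes rose and 10.4% fell, and 8.81% and 11.7%; the medians were 0.20 and 0.25. By adjusted p alone 28 were higher and 6 lower without TGFβ, and 39 and 5 with it, where 23.1% and 24.3% of all genes, and 24.5% and 25.9%, were. MRPS12 had 7714 and 7762 normalized counts in siControl, 13320 and 11896 in siPHF13, 7483 and 7985 in siControl with TGFβ, and 11822 and 14289 in siPHF13 with TGFβ (0.70 ± 0.08 and 0.75 ± 0.08, limma adjusted p = 1.418e-05 and 6.85e-06). MRPL37 went the other way, with 5371 and 5456, 2682 and 2521, 5878 and 5111, and 2594 and 2738 in the same order (-1.06 ± 0.08 and -1.04 ± 0.08, limma adjusted p = 1.339e-07 and 1.315e-07). Upon TGFβ treatment of siControl cells 0 of the 75 passed both thresholds by limma, where 4.79% of all genes did. By adjusted p alone 0 were higher and 4 lower, where 9.21% and 6.67% of all genes were.

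Of 26 genes of the tricarboxylic acid cycle and pyruvate dehydrogenase, 3 rose and 1 fell past both thresholds without TGFβ, and 3 rose and 1 fell with it, where 18.4% and 20.5% of all genes passed in either direction. IDH3A, a subunit of isocitrate dehydrogenase, rose without TGFβ (0.60 ± 0.08, limma adjusted p = 3.67e-05) and was at 0.44 ± 0.08 with it (limma adjusted p = 0.000428), under the fold threshold. PDK3, a kinase that inhibits pyruvate dehydrogenase, was lower in both (-0.87 ± 0.20 and -0.97 ± 0.20, limma adjusted p = 0.003157 and 0.001263).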
